A study of Mus musculus with 24 samples.

Results

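MLLT10 knockout was set against DOT1L knockout in mouse MLL-AF9 cells, a model of acute myeloid leukaemia driven by a fusion of MLL with AF9. The comparison was defined by the library names and took 9 of the 24 RNA sequencing libraries: 3 libraries of MLLT10 guide 1, 3 libraries of MLLT10 guide 2, and 3 libraries of a single DOT1L guide. All of these cells carried Cas9 and received a lentiviral guide at 0.3 multiplicity of infection. Selection in 2 ug/ml puromycin began 48 hours after transduction and lasted 72 hours, and RNA was taken on day 9. The labels name no sorting or cloning, so each library is read as a selected pool. The 3 libraries of the non-targeting guide (NT) were not part of the contrast and are given as background. The labels do not say whether replicates were separate cultures, so p-values measure only the spread between these libraries, which may be technical. The DOT1L group rested on 1 guide, so an effect of that guide alone cannot be told apart from the loss of DOT1L.

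DOT1L is the methyltransferase that marks lysine 79 of histone H3 along transcribed genes. MLLT10, also called AF10, is one of its partners; MLLT6 (AF17) is a paralogue of MLLT10, and MLLT1 (ENL) and MLLT3 (AF9) are YEATS domain proteins that link DOT1L with the elongation machinery. MLL fusion proteins bring this machinery to genes such as those of the Hoxa cluster and Meis1, whose expression maintains a progenitor state. Myeloid progenitors that mature toward neutrophils make primary granule proteins first, then specific and gelatinase granule proteins and the subunits of the phagocyte NADPH oxidase.

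Cells with MLLT10 knockout held far less RNA of most tested genes of specific and gelatinase granules, the later neutrophil granules, than cells with DOT1L knockout, and more RNA of Hoxa genes, Meis1 and other targets of the fusion protein. Of 10578 genes tested, 1153 (10.9%) were called higher and 1333 (12.6%) were called lower in MLLT10 knockout, where called means a Benjamini-Hochberg adjusted p under 0.05 in edgeR's quasi-likelihood test. Among these, 541 (5.11%) were higher and 611 (5.78%) lower by at least 2-fold, and 166 differed by at least 8-fold. The median log2 fold change was 0.01 over all genes tested, and the median size over called genes was 0.95. All 6 MLLT10 libraries lay above all 3 DOT1L libraries for 1373 genes (13%) and below them for 1631 genes (15.4%). Both counts fell when any DOT1L library was left out. Without DOT1L replicate 1, 2 or 3 there were 883, 790 and 727 genes higher and 1106, 998 and 983 lower. Replicate 3 was the deepest of that group. A gene was tested if edgeR's filter on low counts kept it, which a gene high in 1 group alone can pass, so counts over tested members of a list are not counts over all its genes. Folds below are log2 differences of MLLT10 minus DOT1L knockout, and levels are CPM values, counts scaled to a common library size with the TMM factors of edgeR.

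Both MLLT10 guides gave the difference. Guide 1 alone had 944 genes higher (8.92%) and 1022 lower (9.66%) than DOT1L knockout, and guide 2 had 863 higher (8.16%) and 1027 lower (9.71%). These counts share the same DOT1L libraries. Between the guides themselves edgeR called 0 genes higher and 0 lower (0%), with 182 genes at an unadjusted p under 0.05 and 0 called by DESeq2. Against NT, MLLT10 knockout had 25 genes higher (0.236%) and 25 lower (0.236%), with 50 and 54 by DESeq2 and 122 and 70 with no filter on low counts. These counts fell to 8 and 7 without NT replicate 2 and to 9 and 6 without NT replicate 3. DOT1L knockout had 1181 higher (11.2%) and 1128 lower (10.7%) than NT.

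**Figure D1:**
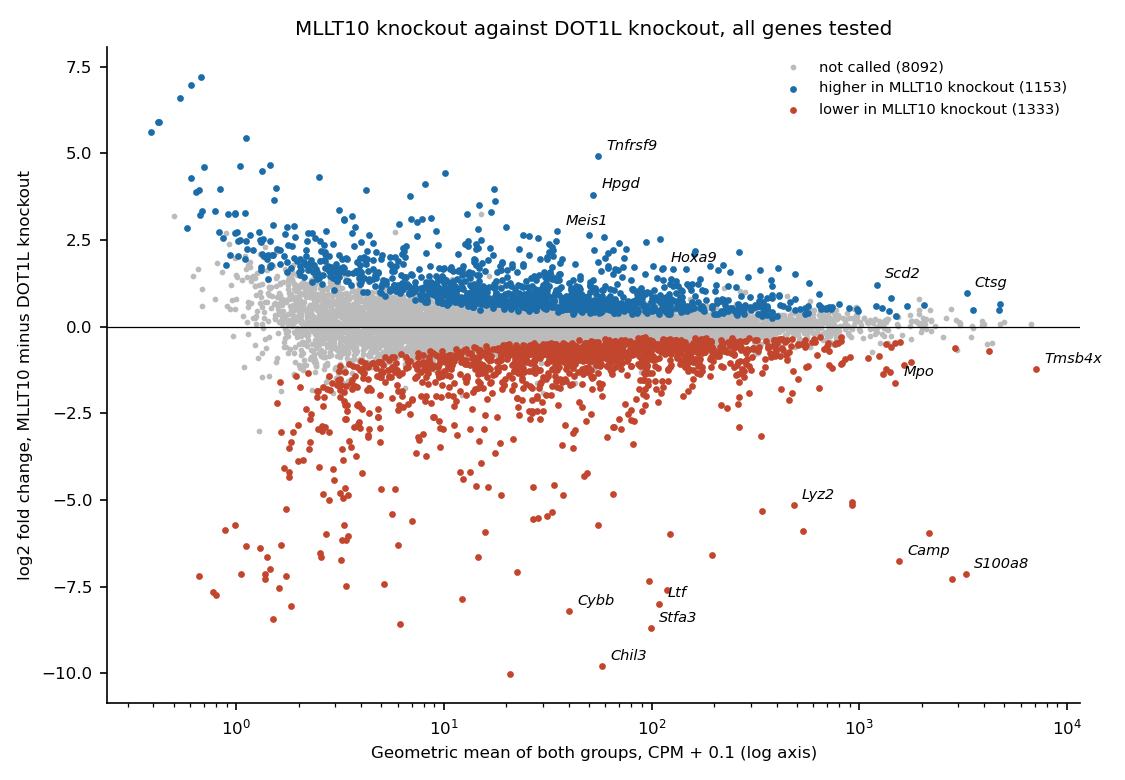
Each point is 1 of 10578 genes; the x axis is the geometric mean level of both groups in CPM + 0.1 on a log axis and the y axis is the log2 fold change of MLLT10 minus DOT1L knockout. Blue points are the 1153 genes called higher and red points the 1333 called lower in MLLT10 knockout; S100a8 and Camp stand at the lower right, with high levels and folds below -6.

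Library depth ran from 2499684 to 7078139 counts over the 9 libraries. S100a8 and S100a9 together took 6.07% to 6.63% of all counts in DOT1L libraries, against 0.0411% to 0.0646% in MLLT10 libraries and 0.011% to 0.0187% in NT libraries. The 9 neutrophil markers summed to 768 to 1102 CPM in MLLT10, 91392 to 105212 CPM in DOT1L and 318 to 410 CPM in NT libraries. Sums of the 6 myeloid progenitor markers were 3558 to 5169 CPM in MLLT10, 7641 to 8175 CPM in DOT1L and 2469 to 3013 CPM in NT libraries. Among these 6, Cd34 was higher in MLLT10 than in DOT1L libraries. For the 7 monocyte or macrophage markers the sums were 4214 to 8199, 3338 to 4183 and 4051 to 6353 CPM, in the same order. The 4 B cell markers were at 0 in all 12 of these libraries, T and NK cell markers summed to at most 2.23 CPM, and erythroid markers to at most 0.389 CPM. In bulk RNA, fewer cells of a type and less RNA per cell cannot be told apart, and the part of these markers' cell types in the results was not tested.

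The targeted genes checked the labels first. Dot1l (chr10:80755206-80795461, GRCm38) stood at 49, 41.6 and 43.3 CPM in DOT1L libraries, 72.6 to 79.3 CPM with a median of 75.7 in MLLT10 libraries, and 69.7, 75.1 and 73.9 CPM in NT libraries. Every DOT1L library was below every other library of these groups, and the log2 fold change was 0.76 ± 0.11 (SE; edgeR adjusted p = 1.42e-05). Mllt10 (chr2:18055237-18212388) stood at 9.06, 7.98 and 9.4 CPM with guide 1, 10.6, 11.1 and 12.1 CPM with guide 2, 19.7, 14.6 and 16 CPM in DOT1L and 16.9, 14.7 and 19.1 CPM in NT libraries. MLLT10 and DOT1L libraries did not overlap, and Mllt10 was lower in MLLT10 knockout by -0.75 ± 0.21 on the log2 scale (SE, edgeR adjusted p = 0.01). Against NT it was at -0.76 ± 0.21 (SE, edgeR adjusted p = 0.139) and was not called. With guide 2 on its own the Mllt10 difference from DOT1L was -0.57 ± 0.24 (SE, edgeR adjusted p = 0.111). The difference from DOT1L also missed the threshold without DOT1L replicate 1. A cut that shifts the reading frame need not lower RNA, so these levels do not measure the share of edited cells. Mllt6 was higher in MLLT10 than in DOT1L knockout, at 29.8 ± 5.33 CPM (SD, n = 6) against 17.8 ± 3.21 CPM (SD, n = 3), with a log2 fold change of 0.76 ± 0.20 (SE; edgeR adjusted p = 0.00681); without DOT1L replicate 3 its adjusted p was 0.0811. Mllt1 (-0.19, edgeR adjusted p = 0.575) and Mllt3 (-0.1, edgeR adjusted p = 0.837) were not called. Of 23 MLL and elongation cofactors, 21 were tested. Aff3 (1.79) and Ell2 (0.81) were higher and Aff1 (-0.55) lower in MLLT10 knockout. These were 9.52% and 4.76% of those tested, beside 10.9% and 12.6% of all genes. Aff1 lost its call with guide 2 on its own or without DOT1L replicate 1 (edgeR adjusted p = 0.1).

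**Figure D2:**
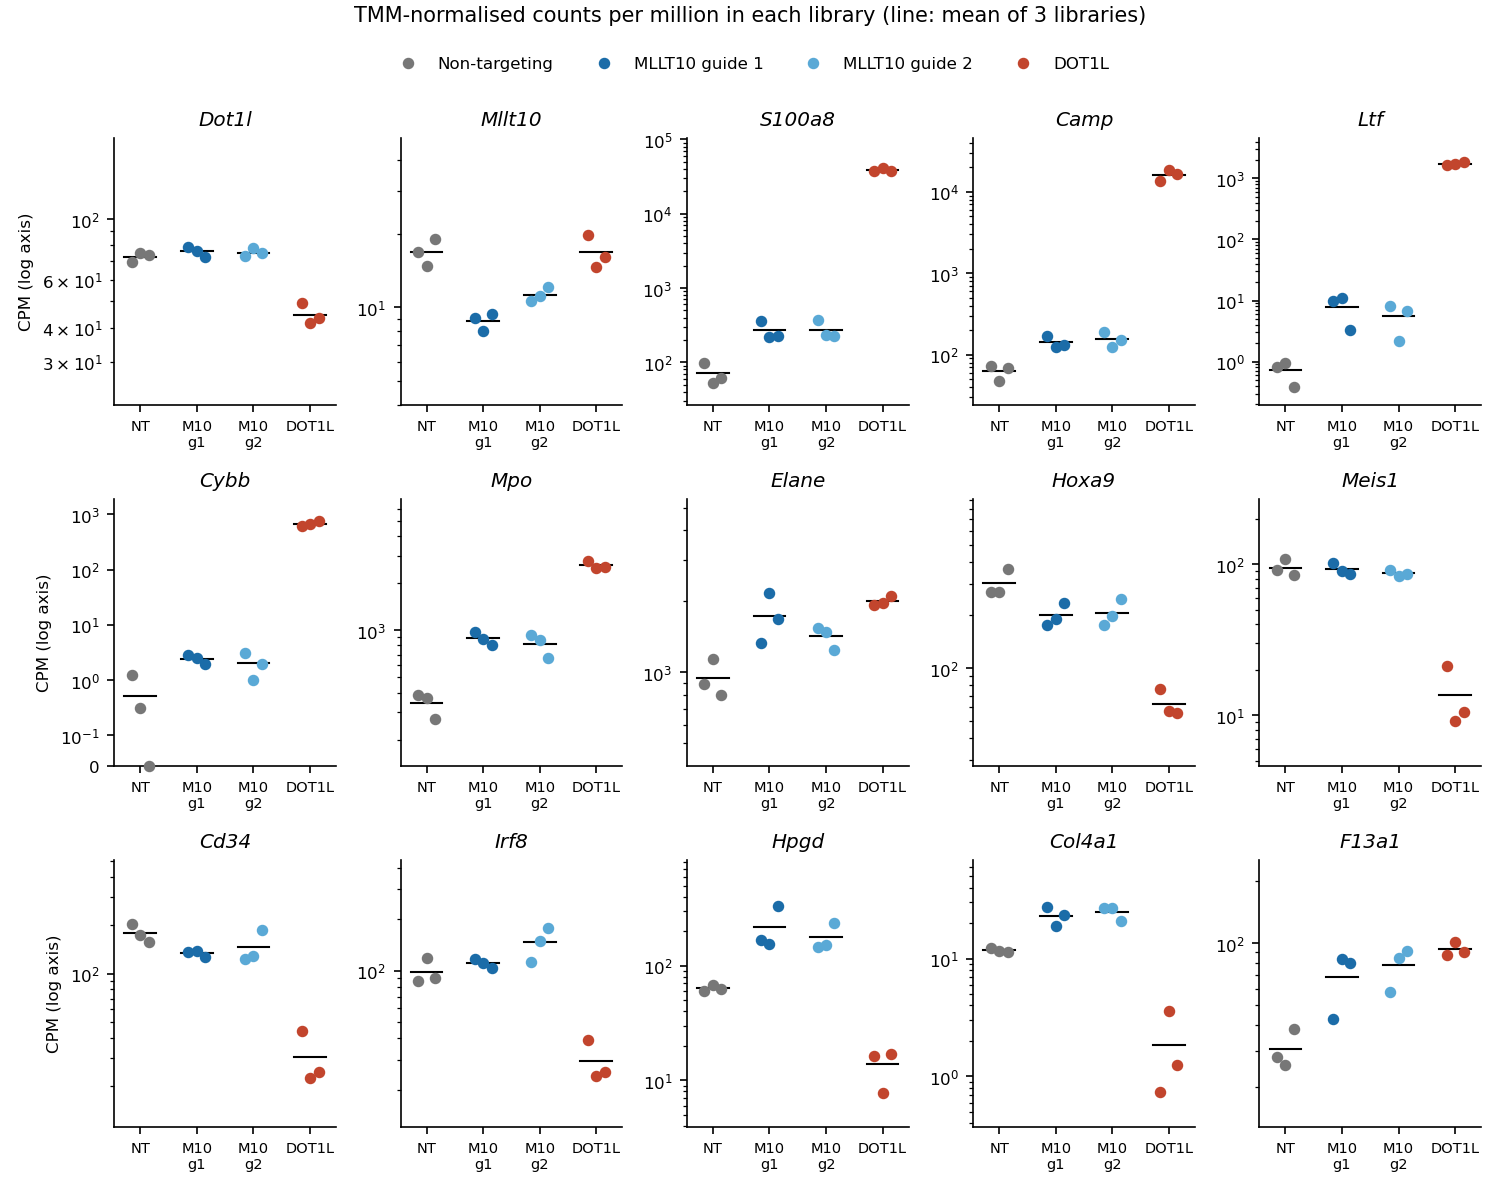
CPM of 15 genes in each library on log axes that differ between panels, for the non-targeting control (NT, grey), MLLT10 guide 1 and guide 2 (M10 g1 and g2, blues) and DOT1L knockout (red); points are libraries and lines are means of 3. The axis of Cybb is linear below 0.1 so that its library at 0 can be shown. MLLT10 and DOT1L libraries overlap only for Elane and F13a1.

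Genes of specific and gelatinase granules were lower in MLLT10 than in DOT1L knockout. Of 26 listed, 22 had enough counts to be tested, and 21 were called lower and 0 higher, beside 12.6% and 10.9% of all genes. The median log2 fold change of the tested members was -5.24, beside 0.01 over all genes. Ltf, which encodes the iron-binding protein lactoferrin (chr9:111019271-111042767), stood at 1668, 1695 and 1831 CPM in DOT1L libraries and at 2.14 to 11 CPM with a median of 7.35 in MLLT10 libraries. In NT libraries Ltf was at 0.824, 0.938 and 0.389 CPM. The MLLT10 libraries lay far below DOT1L and above NT, with a log2 fold change of -7.99 ± 0.35 (SE; edgeR adjusted p = 2.71e-14) from DOT1L and 3.16 ± 0.72 (SE; edgeR adjusted p = 0.0455) from NT. Camp, the cathelicidin precursor (chr9:109847379-109849617), stood at 13619, 18303 and 16665 CPM in DOT1L, 123 to 187 CPM with a median of 141 in MLLT10 and 72.1, 48.2 and 67.7 CPM in NT libraries. Its MLLT10 libraries again lay between both other groups without overlap, and the log2 fold change was -6.78 ± 0.23 (SE; edgeR adjusted p = 2.18e-16) from DOT1L. Ngp (-5.15), Lcn2 (-5.33), Fcnb (-7.59) and the lysozyme gene Lyz2 (-5.15) were lower too. Chil3, a chitinase-like protein with close paralogues, gave the largest fall of the named genes: 2157, 1702 and 1492 CPM in DOT1L against 0.391 to 3.77 CPM with a median of 1.13 in MLLT10 libraries, a log2 fold change of -9.79 ± 0.48 (SE; edgeR adjusted p = 1.96e-13). Tcn2 was the 1 tested member of the list that was not called.

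S100a8 (chr3:90668978-90670035) and S100a9 (chr3:90692632-90695721), the subunits of calprotectin, held the largest differences in level. S100a8 stood at 37308, 41709 and 37222 CPM in DOT1L libraries, 216 to 370.0 CPM with a median of 232 in MLLT10 libraries and 97.7, 53.2 and 61.4 CPM in NT libraries. S100a9 stood at 31858, 35324 and 37219 CPM in DOT1L, 188 to 277 CPM with a median of 206 in MLLT10 and 89.4, 54.1 and 47.8 CPM in NT libraries. For both genes the 3 groups were apart in every library, and the log2 fold change from DOT1L was -7.15 ± 0.29 (SE; edgeR adjusted p = 5.30e-15) for S100a8 and -7.29 ± 0.24 (SE; edgeR adjusted p = 1.53e-16) for S100a9. Against NT, MLLT10 knockout was higher by 1.95 ± 0.30 (SE; edgeR adjusted p = 0.00151) for S100a8, and DOT1L knockout by 9.1 ± 0.43 (SE; edgeR adjusted p = 2.06e-13). Of 31 late neutrophil genes, 28 were tested, and 21 (75%) were lower and 4 (14.3%) higher, beside 12.6% and 10.9% of all genes. The higher share was near that of all genes, and the median was -1.88. Retnlg (-7.41), Il1r2 (-6.3), Mcemp1 (-4.87) and Ly6g were among the lower ones, as was the G-CSF receptor Csf3r (20.8, 14.6 and 19.6 CPM in DOT1L, 3.56 to 5.43 CPM with a median of 4.53 in MLLT10). Those that went the other way included Wfdc17 and the lectin receptors Clec4d and Clec4e. Wfdc17 stood at 1.86, 5.69 and 1.43 CPM in DOT1L, 19 to 29.1 CPM with a median of 24.7 in MLLT10 and 11.1, 24.7 and 17.5 CPM in NT libraries, a log2 fold change of 3.12 ± 0.38 (SE; edgeR adjusted p = 1.01e-06).

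Promoters of 4 genes lower in MLLT10 knockout are shown because their 250 bases before the RefSeq start hold a match to 1 of 2 motifs of myeloid factors, and they were picked after the matches were seen. Most genes of the granule list had none: GAGGAAGT was in 3 of 22 promoters (13.6%) and the other motif in 1 (4.55%), and S100a9, Camp, Ltf, Ngp, Fcnb, Chil3, Lyz2, Lcn2, Stfa1 and Stfa3 held neither. The motifs were GAGGAAGT, an Ets-type site of the kind bound by PU.1, and TTGCNNCAA, a C/EBP-type site, each searched on both strands. Capitals mark the match, and the sequences are RefSeq, GRCm38.p6, written 5′ to 3′ on the strand of the gene. They cover chr3:90668821-90669070 (plus strand) for S100a8, chr16:96443615-96443864 (minus) for Itgb2l, chr9:7558179-7558428 (plus) for Mmp8 and chrX:9469325-9469574 (minus) for Cybb, whose RefSeq start lies inside the longer GENCODE gene span.
S100a8: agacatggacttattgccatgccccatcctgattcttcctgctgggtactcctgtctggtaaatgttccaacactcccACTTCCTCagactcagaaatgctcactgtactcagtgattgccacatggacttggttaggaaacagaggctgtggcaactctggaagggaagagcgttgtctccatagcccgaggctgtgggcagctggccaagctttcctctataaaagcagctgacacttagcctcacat
Itgb2l: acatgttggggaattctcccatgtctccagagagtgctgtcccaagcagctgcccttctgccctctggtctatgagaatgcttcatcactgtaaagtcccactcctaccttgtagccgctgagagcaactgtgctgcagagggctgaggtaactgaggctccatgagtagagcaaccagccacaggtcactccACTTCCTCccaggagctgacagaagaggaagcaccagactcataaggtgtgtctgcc
Mmp8: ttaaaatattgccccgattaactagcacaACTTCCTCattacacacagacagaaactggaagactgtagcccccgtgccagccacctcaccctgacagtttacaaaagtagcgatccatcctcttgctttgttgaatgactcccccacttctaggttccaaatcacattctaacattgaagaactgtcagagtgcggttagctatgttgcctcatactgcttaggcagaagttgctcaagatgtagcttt
Cybb: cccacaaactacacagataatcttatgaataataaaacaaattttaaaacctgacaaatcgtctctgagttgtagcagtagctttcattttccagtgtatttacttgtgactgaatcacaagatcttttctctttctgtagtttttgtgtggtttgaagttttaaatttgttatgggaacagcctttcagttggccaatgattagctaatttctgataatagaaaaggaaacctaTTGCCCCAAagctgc
The match in S100a8 began 172 bases before the start, in Itgb2l 57 and in Mmp8 221, all to GAGGAAGT on the reverse strand; in Cybb a C/EBP match began 15 bases before the start. Itgb2l, an integrin subunit gene of the granule list, stood at 192, 219.7 and 214 CPM in DOT1L and 2.97 to 8.42 CPM with a median of 4.84 in MLLT10 libraries, and Mmp8, neutrophil collagenase, at 44.2, 47.3 and 38.8 CPM in DOT1L and 4.07 to 6.85 CPM with a median of 5.69 in MLLT10 libraries. GAGGAAGT was found in 75 of 1401 promoters (5.35%) of genes called lower in MLLT10 knockout, 21 of 1174 (1.79%) of genes called higher, and 279 of 10273 (2.72%) of all genes tested. TTGCNNCAA was found in 23 (1.64%), 19 (1.62%) and 129 (1.26%) of these promoters. Over all 32851 promoters in the table the shares were 2.44% and 1.74%. A gene with several starts counts more than once, these shares were not tested, and a match is no evidence of binding.

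Subunits of the phagocyte NADPH oxidase, which makes superoxide, were mostly lower in MLLT10 than in DOT1L knockout. Of 9 members tested, 7 (77.8%) were lower and 0 higher, beside 12.6% and 10.9% of all genes. Cybb, the catalytic subunit gp91phox (chrX:9435252-9487771), stood at 618, 671 and 763 CPM in DOT1L libraries, 1 to 3.11 CPM with a median of 2.23 in MLLT10 libraries and 1.24, 0.313 and 0 CPM in NT libraries. MLLT10 libraries overlapped NT and lay far below DOT1L, with a log2 fold change of -8.22 ± 0.26 (SE; edgeR adjusted p = 8.27e-17). The proton channel gene Hvcn1 (-4.23 ± 0.24 SE, edgeR adjusted p = 2.94e-12) was lower, as were Ncf4, Ncf1, Rac2 and Rac1, with log2 fold changes from -1.61 to -0.31. Cyba and Cybc1 were not called.

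Stefins and other protease inhibitors split. Of 14 tested, 8 (57.1%) were lower and 4 (28.6%) higher, beside 12.6% and 10.9% of all genes. The stefin A genes Stfa1, Stfa2, Stfa2l1 and Stfa3 and their neighbour BC100530 were lower, with log2 fold changes from -8.70 to -5.89, but reads could be split between these near-identical genes. Wfdc21 stood at 1706, 2059 and 2012 CPM in DOT1L, 15.6 to 23 CPM with a median of 20.4 in MLLT10 and 2.89, 0.626 and 1.94 CPM in NT libraries. The log2 fold change was -6.6 ± 0.22 (SE; edgeR adjusted p = 1.68e-16) from DOT1L and 3.5 ± 0.37 (SE; edgeR adjusted p = 2.08e-05) from NT, with no overlap among the groups. Slpi, Serpina3g, Cst7 and Wfdc17 were the 4 higher in MLLT10 knockout.

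Primary granule genes, which are made earlier, differed less. Of 17, 15 were tested, and 6 (40%) were lower and 2 (13.3%) higher, beside 12.6% and 10.9% of all genes. The higher share was thus near that of all genes. The median was -0.35, and the higher count was 1 without DOT1L replicate 2 or with guide 1 on its own. Mpo, the myeloperoxidase gene (chr11:87793581-87804413), stood at 2768, 2519.6 and 2549 CPM in DOT1L libraries, 668 to 975 CPM with a median of 871 in MLLT10 libraries and 384, 369 and 271 CPM in NT libraries. MLLT10 libraries lay between the others, with a log2 fold change of -1.61 ± 0.15 (SE; edgeR adjusted p = 1.72e-08) from DOT1L and 1.32 ± 0.17 (SE; edgeR adjusted p = 0.000173) from NT. Prtn3, proteinase 3, was lower (-0.85 ± 0.15 SE, edgeR adjusted p = 0.000107). Elane, neutrophil elastase, stood at 1577 ± 329.8 CPM (SD, n = 6) in MLLT10 and 2001 ± 89.4 CPM (SD, n = 3) in DOT1L libraries; these overlapped, it was not called, and the 95% interval of the log2 difference was -0.71 to 0.01. Ctsg, cathepsin G, was higher in MLLT10 knockout, at 3644 to 5513 CPM with a median of 4526 against 2805, 2273 and 1972 CPM in DOT1L and 4845, 5054 and 5277 CPM in NT libraries. All 6 MLLT10 libraries exceeded all 3 DOT1L libraries, with a log2 fold change of 0.97 ± 0.15 (SE; edgeR adjusted p = 4.86e-05).

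Receptors of phagocytes were mostly lower in MLLT10 knockout. Of 30 pattern recognition and Fc receptors, 21 were tested, and 13 (61.9%) were lower and 2 (9.52%) higher, with a median of -0.89. Over all genes 12.6% were lower and 10.9% higher, so the higher share was near that of all genes. The lectin receptors Clec4a2 (-5.47) and Clec5a (-3.65), the inhibitory receptor Pirb (-2.62) and the cytosolic sensor Nod1 (-1.97) led the list; Clec4a2 has close paralogues. The complement receptor C5ar1 stood at 28.2, 46.2 and 52.4 CPM in DOT1L libraries and at 0 to 0.453 CPM in MLLT10 libraries, which held 7 counts of it in all. Of 26 haematopoietic cytokine receptors, 19 were tested, and 8 (42.1%) were lower and 4 (21.1%) higher, beside 12.6% and 10.9% of all genes. Il1r2, the decoy receptor of interleukin 1, the GM-CSF receptor chain Csf2ra (-2.43) and Csf3r were lower, while Tnfrsf9 (4.91), Flt3 (2.47) and Il6st (1.92) were higher. Among 11 tested chemokine and cytokine genes, 3 (27.3%) were higher and 3 (27.3%) lower, beside 10.9% and 12.6% of all genes. Il1rn, the interleukin 1 receptor antagonist, was lower, as was Ccl6 (-3.43). Il1rn stood at 68.4, 82.8 and 88.6 CPM in DOT1L and 2.43 to 4.54 CPM (median 3.14) in MLLT10 libraries. Without DOT1L replicate 3, only 1 of the 3 higher calls was left.

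Myeloid transcription factors were lower in MLLT10 than in DOT1L knockout in 11 (44%) of 25 tested members of 34, and 1 (4%) was higher. Over all genes 12.6% were lower and 10.9% higher. Cebpd stood at 454, 657 and 609 CPM in DOT1L, 131 to 179 CPM with a median of 150.1 in MLLT10 and 88.2, 134 and 128 CPM in NT libraries. MLLT10 and NT libraries overlapped, and the log2 fold change from DOT1L was -1.92 ± 0.20 (SE; edgeR adjusted p = 1.69e-07). Cebpe, needed for specific granules, was at 124, 135 and 148 CPM in DOT1L and 43 to 77.2 CPM with a median of 60.4 in MLLT10 libraries (-1.15 ± 0.20 SE, edgeR adjusted p = 0.000149). Spi1, which encodes PU.1, was at 348, 342 and 300.4 CPM in DOT1L and 111 to 184 CPM with a median of 139.8 in MLLT10 libraries (-1.17 ± 0.19 SE, edgeR adjusted p = 5.39e-05). The repressor Gfi1 (-0.64) and the zinc finger factor Klf6 (-2.01) were lower as well. Bcl6 had 3 counts over the 6 MLLT10 libraries and 118 over the 3 DOT1L libraries, a ratio of 116 between DOT1L and MLLT10 with a 95% counting interval of 38.7 to 570. Irf8, a factor of monocytes and dendritic cells, was the 1 member higher in MLLT10 knockout. It stood at 104 to 178 CPM with a median of 115 in MLLT10 libraries, 39.4, 24.2 and 25.5 CPM in DOT1L and 87, 119 and 91 CPM in NT libraries, a log2 fold change of 2.11 ± 0.24 (SE; edgeR adjusted p = 5.23e-07).

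**Figure D3:**
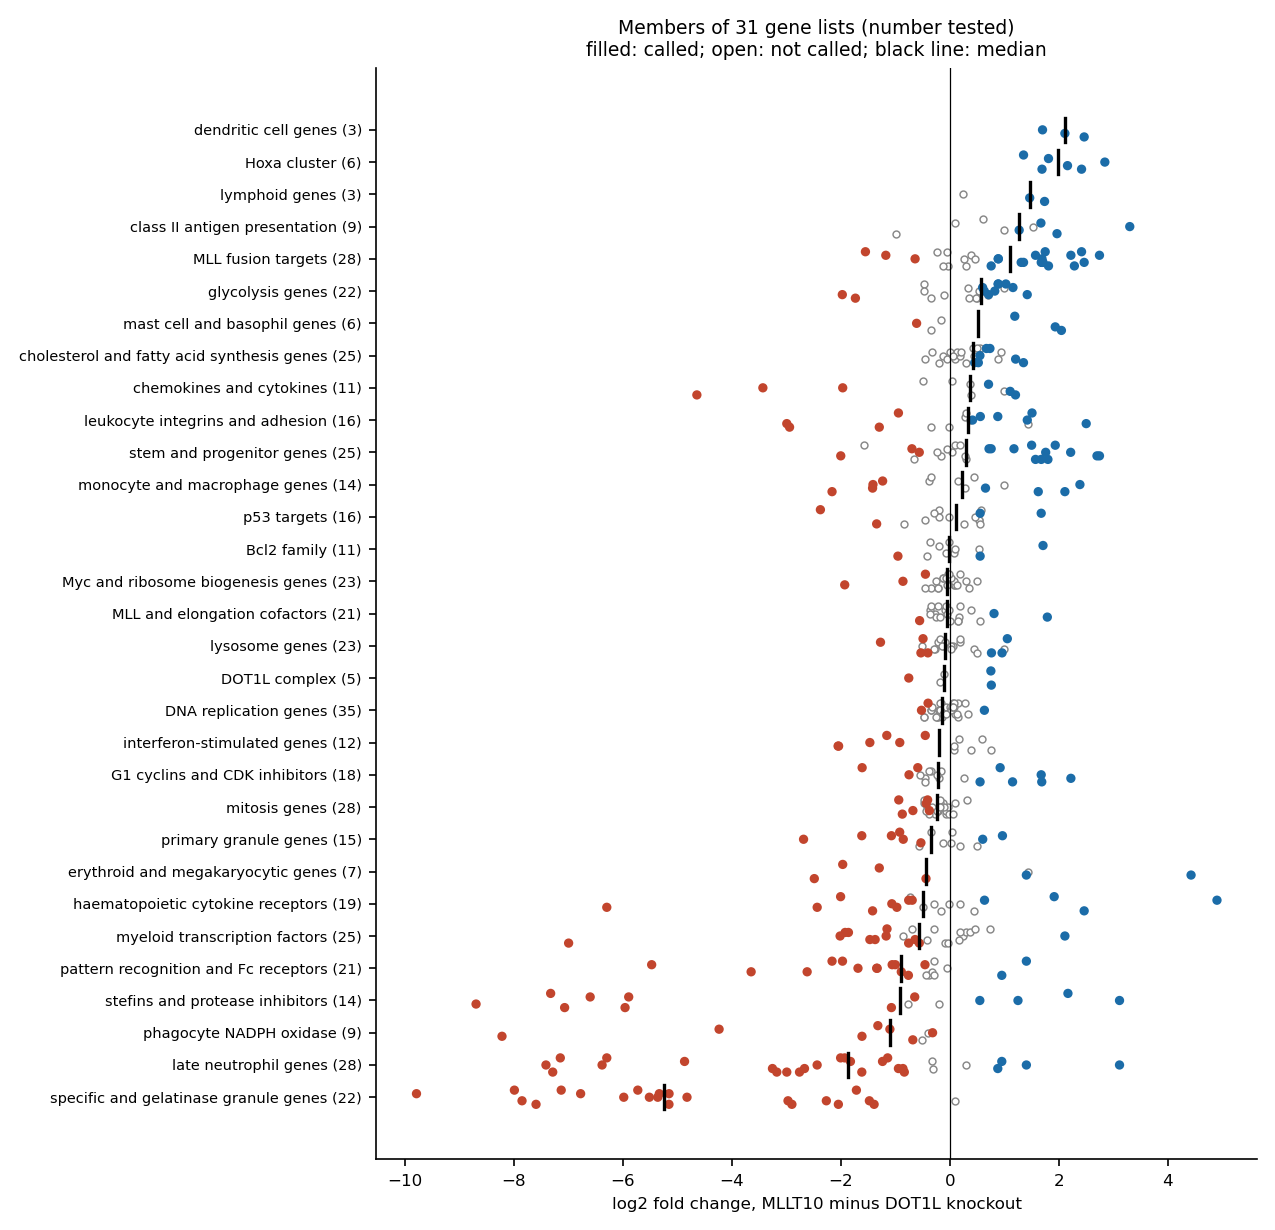
Log2 fold change of MLLT10 minus DOT1L knockout for every tested member of 31 gene lists, ordered by their medians; the number tested stands behind each name. Filled points were called (blue higher, red lower), open points were not, and black lines are medians, from -5.24 for specific and gelatinase granule genes to 2.12 for the 3 tested dendritic cell genes.

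Known targets of MLL fusion proteins were mostly higher in MLLT10 than in DOT1L knockout. All 6 Hoxa genes with enough counts were called higher (median 1.99), beside 10.9% of all genes. In the list, 6 of the 12 members had too few counts to be tested. Hoxa9 (chr6:52223100-52231089), a homeobox factor that sustains these leukaemias, stood at 176 to 246 CPM with a median of 194 in MLLT10 libraries, 76.2, 56.9 and 55.8 CPM in DOT1L and 271, 272 and 365 CPM in NT libraries. MLLT10 libraries lay between the others, and the log2 fold change was 1.69 ± 0.17 (SE; edgeR adjusted p = 5.47e-08) from DOT1L and -0.58 ± 0.15 (SE; edgeR adjusted p = 0.0975) from NT. Hoxa10 (2.42 ± 0.22 SE, edgeR adjusted p = 9.58e-09), Hoxa11, Hoxa5 and Hoxa7 were higher by 1.36 to 2.42 on the log2 scale. Hoxa2 had 48 counts in MLLT10 and 2 in DOT1L libraries, a ratio of 8.15 with a 95% counting interval of 2.14 to 69.2. Meis1 (chr11:18879817-19018985), a cofactor of Hox proteins, stood at 83.3 to 102 CPM with a median of 88.6 in MLLT10, 21.2, 9.24 and 10.5 CPM in DOT1L and 91.5, 108 and 85.2 CPM in NT libraries. Its MLLT10 and NT libraries overlapped, all DOT1L libraries were lower, and the log2 fold change was 2.75 ± 0.20 (SE; edgeR adjusted p = 4.33e-10). Hoxc4, outside the Hoxa cluster, had 234 counts in MLLT10 and 3 in DOT1L libraries, a ratio of 26.5 with an interval of 8.95 to 129.

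Of 30 MLL fusion targets, 28 were tested, and 17 (60.7%) were higher and 3 (10.7%) lower, beside 10.9% and 12.6% of all genes. The lower share was near that of all genes, and the median was 1.10. This list includes Hoxa genes and Meis1. The kinase inhibitor gene Cdkn2c (2.22), the transcriptional coactivator Eya1 (2.29), the receptor Flt3 and the survival gene Bcl2 (1.71) were higher in MLLT10 knockout. Eya1 stood at 60.6 to 79.2 CPM with a median of 74.3 in MLLT10, 21.6, 13.9 and 10.2 CPM in DOT1L and 114, 118 and 120.1 CPM in NT libraries, all 3 groups apart. The translation regulator Cpeb2 (-1.55), Gfi1 and the chromatin organiser Satb1 (-1.17) were lower. Satb1 lost its call without DOT1L replicate 3 or with guide 2 on its own (edgeR adjusted p = 0.0913). Myc (-0.13, 95% interval -1.45 to 1.2) and Myb (-0.04, -0.37 to 0.29) were not called. Myc ranged from 41.6 to 151 CPM among MLLT10 libraries, and its interval includes a 2-fold difference either way, while the Myb interval excludes a 2-fold difference.

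Of 30 stem and progenitor genes, 25 were tested, and 12 (48%) were higher and 3 (12%) lower, beside 10.9% and 12.6% of all genes. The lower share was thus near that of all genes. Cd34, a progenitor surface protein, stood at 124 to 187 CPM with a median of 133 in MLLT10 libraries against 44.2, 22.4 and 24.4 CPM in DOT1L and 203, 174 and 158 CPM in NT libraries, a log2 fold change of 2.22 ± 0.26 (SE; edgeR adjusted p = 6.55e-07). Cd93 (1.5), Muc13 (1.76) and the transcription factor Gata2 (1.94) were higher too. Prom1, which encodes the progenitor marker CD133, went the other way: it stood at 38.3 to 60.6 CPM with a median of 44.8 in MLLT10, 172, 199 and 191 CPM in DOT1L and 26.8, 7.51 and 9.72 CPM in NT libraries. Prom1 was lower in MLLT10 than in DOT1L knockout (-2.0 ± 0.24 SE, edgeR adjusted p = 1.12e-06) and higher than in NT (1.7 ± 0.30 SE, edgeR adjusted p = 0.00687). Kit was not called (-0.17, 95% interval -0.64 to 0.3). Of the 3 lower members, 1 was left without DOT1L replicate 3 or with either guide on its own. The same held without replicate 2 or 3 of either MLLT10 guide.

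Genes of other blood lineages moved in both directions. All 3 tested dendritic cell genes of 15 (Irf8, Tcf4 and Flt3) were higher in MLLT10 knockout. Of 9 tested class II presentation genes, 4 (44.4%) were higher. In both lists 0 were lower. Over all genes 10.9% were higher and 12.6% lower. Irf8 was also counted above among myeloid transcription factors, and Tcf4 and Flt3 among MLL fusion targets. H2-Ob, a regulator of peptide loading, stood at 39.7 to 65.6 CPM with a median of 52.5 in MLLT10, 3.34, 6.04 and 6.24 CPM in DOT1L and 35, 93.5 and 99.9 CPM in NT libraries (3.31 ± 0.31 SE, edgeR adjusted p = 2.16e-08). Cd74, the invariant chain, was at 5.32 to 9.51 CPM with a median of 7.69 in MLLT10 and 1.11, 2.84 and 1.78 CPM in DOT1L libraries, while the class II gene H2-Ab1 had 4 counts over the 9 libraries. A low count is not read as absence here: Fen1, a nuclease of DNA replication, had 1 count and the apoptosis gene Bax 80 counts over the same libraries.

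Of 30 monocyte and macrophage genes, 14 were tested, and 4 (28.6%) were higher and 4 (28.6%) lower, beside 10.9% and 12.6% of all genes. Without DOT1L replicate 3, 2 of the lower calls were left. The macrophage receptor Adgre1 stood at 98.4 to 150.3 CPM with a median of 122 in MLLT10, 31.6, 40.9 and 44.9 CPM in DOT1L and 159, 241 and 259 CPM in NT libraries, so MLLT10 lay between the others (1.63 ± 0.18 SE, edgeR adjusted p = 2.23e-07). The chemokine receptor Ccr2 (2.39) and the lectin Clec10a (2.11) were higher, and the high-affinity Fc receptor Fcgr1 (-2.16) and the lectin Mgl2 (-1.41) lower. The macrophage marker C1qa was at 0 in all MLLT10, DOT1L and NT libraries. Of mast cell and basophil genes, 3 of 6 tested (50%) were higher and 1 (16.7%) lower. Of erythroid and megakaryocytic genes, 2 of 7 tested (28.6%) were higher and 4 (57.1%) lower. The 1 lower mast cell gene lost its call without DOT1L replicate 1 or with guide 1 on its own. The beta globin gene Hbb-bt stood at 29.3 to 69.5 CPM with a median of 44.6 in MLLT10, 1.49, 1.78 and 2.85 CPM in DOT1L and 65.5, 92.9 and 73.9 CPM in NT libraries (4.43 ± 0.34 SE, edgeR adjusted p = 1.07e-09), although the erythroid markers above were near 0 and its paralogue could share reads. Of 26 lymphoid genes only 3 were tested, and 2 (66.7%) were higher, or 1 without DOT1L replicate 3 or with guide 1 on its own. The fibroblast marker Col1a1, a collagen gene, had 3 counts in MLLT10 and 198 in DOT1L libraries, a ratio of 194 between DOT1L and MLLT10 with an interval of 65.5 to 950, while Col1a2 was at 0 in the 9 libraries.

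**Figure D4:**
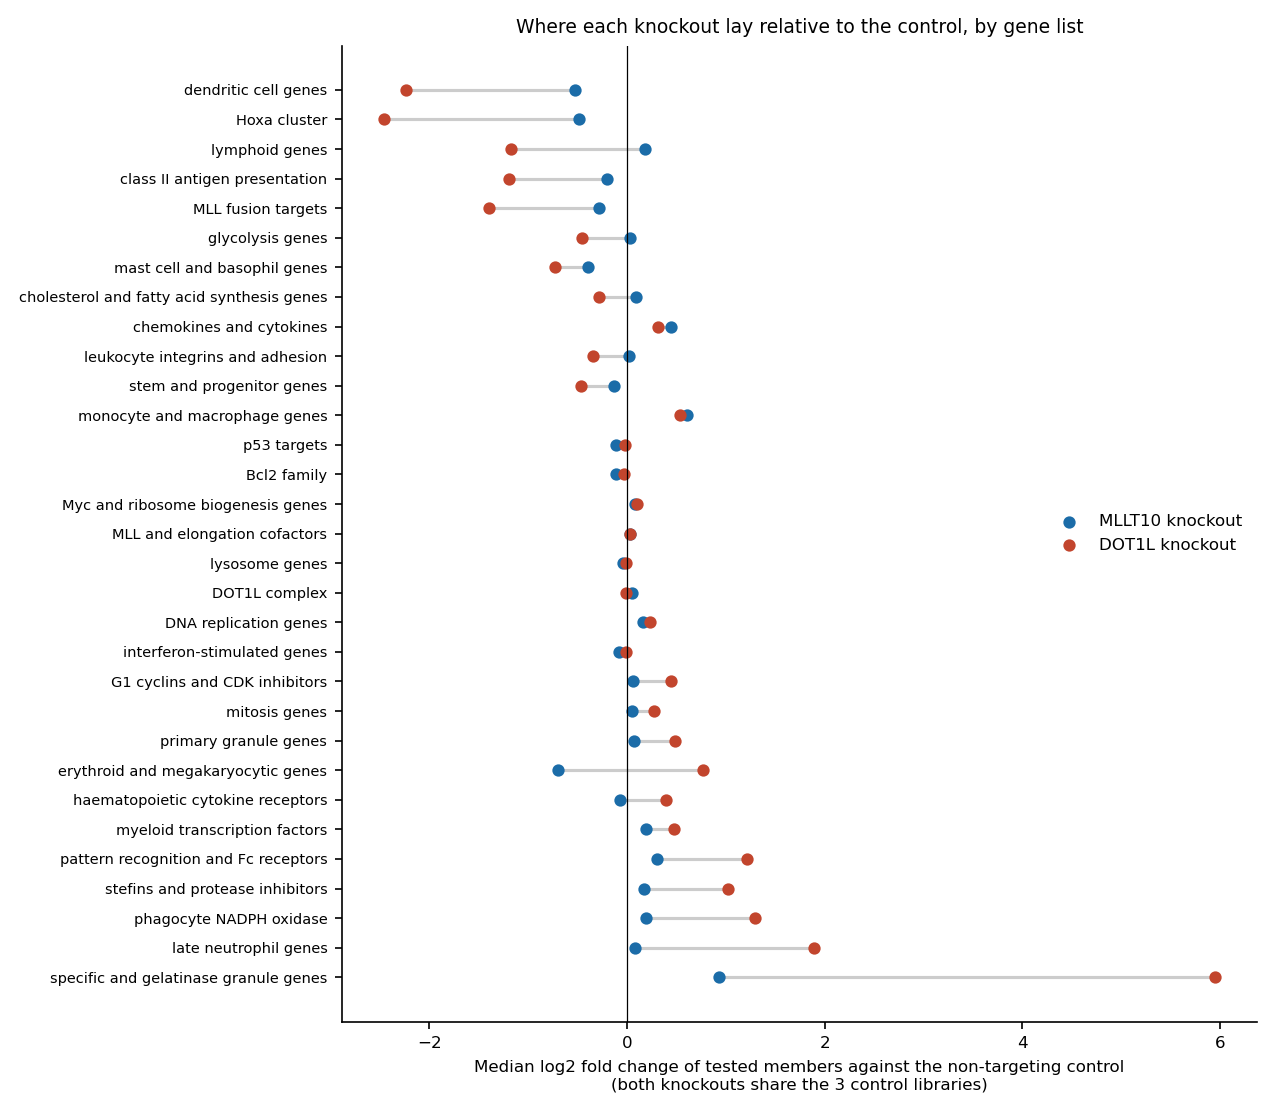
Median log2 fold change of tested list members against the non-targeting control, for MLLT10 knockout (blue) and DOT1L knockout (red). Lists are ordered by their median log2 fold change of MLLT10 minus DOT1L knockout. Both sets share the 3 control libraries; for specific and gelatinase granule genes the medians are 0.94 and 5.95, and for Hoxa genes -0.49 and -2.46.

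Most genes of cell division were not called. Of 35 tested DNA replication genes 2 were lower and 1 higher (median -0.13), counts below the shares over all genes. The lower count was 1 without DOT1L replicate 1 or 2. The higher count was 0 without DOT1L replicate 2 or 3 or with guide 2 on its own. Of 28 tested mitosis genes 6 (21.4%) were lower and 0 higher (median -0.23), beside 12.6% and 10.9% of all genes. Only 2 were lower without DOT1L replicate 3, and 3 with guide 2 on its own. Mki67, a marker of cycling cells, stood at 76.6 to 164 CPM with a median of 131 in MLLT10, 248, 235 and 225 CPM in DOT1L and 134, 148 and 114 CPM in NT libraries (-0.94 ± 0.19 SE, edgeR adjusted p = 0.000584). Among 18 tested G1 cyclins and inhibitors of their kinases, 6 (33.3%) were higher and 3 (16.7%) lower, beside 10.9% and 12.6% of all genes. The lower share was near that of all genes. Cdkn2c, Cdkn1a (1.68 ± 0.41 SE, edgeR adjusted p = 0.00366) and cyclin D2 (Ccnd2, 1.15 ± 0.19 SE, edgeR adjusted p = 9.51e-05) were higher, and E2f2 (-1.61 ± 0.20 SE, edgeR adjusted p = 1.79e-06) was lower. Of 23 tested Myc and ribosome biogenesis genes 3 (13%) were lower, near the 12.6% of all genes, and 0 higher. Without DOT1L replicate 2 or with guide 2 on its own, 1 was lower. The Myc antagonist Mxd1, which rises in maturing myeloid cells, stood at 38.4 to 75.1 CPM with a median of 58.4 in MLLT10, 194, 235 and 221 CPM in DOT1L and 25.6, 74.4 and 74.7 CPM in NT libraries (-1.93 ± 0.26 SE, edgeR adjusted p = 4.57e-06).

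More genes of glycolysis and of lipid synthesis were higher than lower in MLLT10 knockout. Of 22 tested glycolysis genes 9 (40.9%) were higher and 2 (9.09%) lower, beside 10.9% and 12.6% of all genes, with a median of 0.57. Pdk1, which restrains pyruvate oxidation, stood at 185 to 221 CPM with a median of 202 in MLLT10, 64.3, 114 and 116 CPM in DOT1L and 189.6, 242 and 285 CPM in NT libraries (1.03 ± 0.16 SE, edgeR adjusted p = 4.89e-05), and the glucose transporter Slc2a1 was higher too (0.89). The transporter Slc2a3 (-1.73 ± 0.17 SE, edgeR adjusted p = 5.76e-08) and the regulatory enzyme Pfkfb4 (-1.97 ± 0.18 SE, edgeR adjusted p = 1.42e-08) were the 2 lower ones. Of 25 tested cholesterol and fatty acid synthesis genes 7 (28%) were higher and 0 lower. The higher count was 3 without DOT1L replicate 1. The elongase Elovl6 stood at 53.1 to 79.7 CPM with a median of 67.6 in MLLT10 and 22.7, 27.7 and 28.2 CPM in DOT1L libraries (1.35 ± 0.19 SE, edgeR adjusted p = 6.61e-06), and the sterol demethylase Cyp51 differed by 0.55 ± 0.12 (SE; edgeR adjusted p = 0.00188).

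Interferon-stimulated genes were lower in 6 (50%) of 12 tested members of 29, and 0 were higher, beside 12.6% and 10.9% of all genes. Without DOT1L replicate 3 the lower count was 3. Cmpk2 stood at 8.1 to 14.5 CPM with a median of 10.4 in MLLT10, 38.6, 54.4 and 44.2 CPM in DOT1L and 4.95, 1.88 and 5.05 CPM in NT libraries (-2.05 ± 0.26 SE, edgeR adjusted p = 2.02e-06). Of 16 tested p53 targets 2 were higher and 2 lower, close to the shares over all genes, with Trp53inp1 (-2.37) at the lower end. The higher count was 1 without DOT1L replicate 2 or 3 or with guide 2 on its own. With a replicate block in the fit it was 4. In the Bcl2 family, 2 of 11 tested (18.2%) were higher and 1 (9.09%) lower, beside 10.9% and 12.6% of all genes. Bcl2 stood at 28.4 to 47 CPM with a median of 38.8 in MLLT10, 14.9, 10.3 and 10.2 CPM in DOT1L and 40.0, 54.4 and 52.5 CPM in NT libraries. The death-promoting Bcl2l11 was lower (-0.95 ± 0.16 SE, edgeR adjusted p = 0.000129). The higher count of this family was 1 without DOT1L replicate 2 or 3 or with guide 2 on its own. Among 16 tested integrins and adhesion genes 6 (37.5%) were higher and 4 (25%) lower, beside 10.9% and 12.6% of all genes. The integrin chain Itgam, which encodes CD11b, stood at 11.7 to 22 CPM with a median of 13.9 in MLLT10, 100.3, 121 and 137 CPM in DOT1L and 11.5, 10.6 and 22.9 CPM in NT libraries (-2.99 ± 0.25 SE, edgeR adjusted p = 4.06e-09), and Vcam1 was lower (-2.94), while Itgb7 (2.51) and Itga6 (1.51) were higher. Of 23 tested lysosome genes 3 were higher, among them Glb1 (1.06), and 4 lower, among them Neu1 (-1.27), near the shares over all genes; the lower count was 2 without DOT1L replicate 1, and the higher count was 5 when only the 9 libraries were fitted or genes with low counts were kept.

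The largest rise of the genes named by fold was in Tnfrsf9, a costimulatory receptor of the TNF receptor family (chr4:150914562-150946102). It stood at 140.0 to 509 CPM with a median of 277 in MLLT10, 0.743, 9.6 and 18.4 CPM in DOT1L and 988, 1652 and 927 CPM in NT libraries. MLLT10 libraries lay between the others without overlap, 4.91 ± 0.62 (SE; edgeR adjusted p = 2.02e-06) from DOT1L and -1.92 ± 0.43 (SE; edgeR adjusted p = 0.0449) from NT. Stc1, Gcnt4, Arfgef3 and the noncoding RNA Platr26 were higher, with log2 fold changes from 3.37 to 3.96. C2cd4b, Pcdh7, Ctla2a and Zfpm1 were lower in MLLT10 knockout than in NT, with log2 fold changes from -1.68 to -0.93, and higher than in DOT1L knockout, from 1.41 to 2.66. At the other end, Krt83, a keratin gene, had 1 count in MLLT10 and 200 in DOT1L libraries, a ratio of 589 between DOT1L and MLLT10 with an interval of 104 to 23400, and Ifitm6, Ceacam10 and Fcnb had log2 fold changes from -8.57 to -7.59. The chloride channel gene Cftr stood at 1.88 to 5.86 CPM with a median of 3.69 in MLLT10, 79.1, 49.4 and 43.7 CPM in DOT1L and 0.824, 0.313 and 0 CPM in NT libraries (-3.95 ± 0.35 SE, edgeR adjusted p = 9.58e-09 from DOT1L, 3.22 ± 0.74 SE, edgeR adjusted p = 0.0474 from NT).

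Hpgd and Col4a1 lay on opposite sides of NT in the 2 knockouts. Hpgd, which breaks down prostaglandins (chr8:56294585-56321043), stood at 144 to 335 CPM with a median of 161 in MLLT10, 16.3, 7.82 and 17.1 CPM in DOT1L and 60.6, 68.2 and 62.6 CPM in NT libraries. Every MLLT10 library was above every NT library and every DOT1L library below, with a log2 fold change of 3.8 ± 0.49 (SE; edgeR adjusted p = 2.63e-06) from DOT1L; the step from NT to MLLT10 was not called (1.62 ± 0.42 SE, edgeR adjusted p = 0.0949), and that from NT to DOT1L was (-2.19 ± 0.50 SE, edgeR adjusted p = 0.00249). Col4a1, a basement membrane collagen (chr8:11198423-11312826), stood at 18.8 to 27.5 CPM with a median of 25.1 in MLLT10, 0.743, 3.55 and 1.25 CPM in DOT1L and 12.4, 11.6 and 11.3 CPM in NT libraries. It had the same order, 3.76 ± 0.43 (SE; edgeR adjusted p = 4.74e-07) from DOT1L, and its step from NT to MLLT10 was likewise not called (1.04 ± 0.33 SE, edgeR adjusted p = 0.229).

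For a few genes MLLT10 knockout stood near DOT1L knockout and away from NT; these were chosen after their values were seen. Lpxn, an adaptor protein of focal adhesions and one of the listed fusion targets (chr19:12796193-12833807), stood at 15.4 to 30.5 CPM with a median of 23.9 in MLLT10, 26.4, 19.2 and 11.4 CPM in DOT1L and 82.8, 81 and 64.9 CPM in NT libraries. MLLT10 and DOT1L libraries overlapped, the log2 difference between them was 0.30 with a 95% interval of -0.17 to 0.77, and the log2 difference of MLLT10 from NT was -1.74 ± 0.20 (SE; edgeR adjusted p = 7.09e-05). Pan3, a subunit of a deadenylase, differed by 0.40 (0.04 to 0.75) between the knockouts, and was called higher without MLLT10 guide 1 replicate 1 or DOT1L replicate 1. F13a1, coagulation factor XIII, stood at 42.6 to 91 CPM with a median of 81.7 in MLLT10, 87.3, 101 and 90.7 CPM in DOT1L and 28, 25.6 and 38.1 CPM in NT libraries, a log2 difference of -0.35 (-0.83 to 0.13). The ubiquitin ligase gene Ube4a differed by 0.11 (-0.33 to 0.55) and stood above NT by 1.36 ± 0.25 (SE; edgeR adjusted p = 0.00721). These intervals exclude a 2-fold difference between the knockouts.

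In 2 further genes, MLLT10 knockout stood apart from both DOT1L knockout and NT. The chemokine Ccl9 stood at 159.8 to 186 CPM with a median of 174 in MLLT10, 119, 117 and 82.2 CPM in DOT1L and 71.3, 97.3 and 80.1 CPM in NT libraries; every MLLT10 library was above all others (0.71 ± 0.16 SE, edgeR adjusted p = 0.00209 from DOT1L, 1.06 ± 0.17 SE, edgeR adjusted p = 0.00178 from NT). The kinase Wnk1 stood at 98 to 142 CPM with a median of 118 in MLLT10, 163, 177 and 152 CPM in DOT1L and 202, 209.6 and 216 CPM in NT libraries; every MLLT10 library was below all others (-0.45 ± 0.12 SE, edgeR adjusted p = 0.00754 from DOT1L, -0.8 ± 0.12 SE, edgeR adjusted p = 0.00135 from NT), and the first call was lost without DOT1L replicate 2 or with no filter on low counts. DOT1L knockout was not called against NT for either gene (0.35 ± 0.19 SE, edgeR adjusted p = 0.198 and -0.35 ± 0.14 SE, edgeR adjusted p = 0.082).

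By difference in mean CPM rather than fold, the genes lower in MLLT10 knockout were led by S100a8, S100a9, Camp, Ngp, Stfa1 and the actin-binding peptide Tmsb4x. Tmsb4x stood at 3428 to 5392 CPM with a median of 4845 in MLLT10, 10003, 11717 and 10882 CPM in DOT1L and 4452, 4739 and 5147 CPM in NT libraries (-1.22 ± 0.21 SE, edgeR adjusted p = 0.000119). The genes higher in MLLT10 knockout by this measure were Ctsg, Ly6c2, the tubulin Tubb5, the chaperone Hsp90ab1, the desaturase Scd2 and pyruvate kinase Pkm. Apart from Ctsg these log2 differences ran from 0.47 to 1.21, and each lost its call without at least 1 DOT1L library, with adjusted p over the alternatives of up to 0.0959 for Ly6c2, 0.198 for Tubb5, 0.0949 for Hsp90ab1, 0.066 for Scd2 and 0.093 for Pkm. Scd2 stood at 3388, 1151 and 1184 CPM with guide 1, 2612, 1358 and 1421 CPM with guide 2 and 565, 943 and 894 CPM in DOT1L libraries; replicate 1 of both guides was the highest, and its call was also lost without these libraries.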

How the data were processed

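Total RNA of the 24 libraries in 8 groups was sequenced, and the authors deposited raw counts per gene in 1 table. Per the submitters' processing notes, the tools were bcl2fastq, HISAT2, HTSeq and DESeq2 with the mm10 build; the tools' versions, the annotation and the strand setting are not recorded there, so reads of antisense, overlapping or near-identical genes may be shared. Positions came from GENCODE M21 (42462 of 43629 gene names matched).

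All 24 libraries entered 1 fit in edgeR 4.0.16 (R 4.3.3) with a term per group, TMM scaling, edgeR's filterByExpr and the quasi-likelihood test, so all groups share 1 estimate of the spread. MLLT10 was the mean of both guides (6 libraries). The SE is the fold divided by the square root of F. Intervals of count ratios are 95% exact binomial intervals and cover counting error only.

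The comparison and the 31 gene lists were chosen with earlier results of these data known. Named genes were the DOT1L complex, the 10 largest folds each way with a mean of at least 5 CPM and a call with both guides, the 4 smallest p-values of each list, 6 each way that also differed from NT, and the 6 largest differences in CPM each way. Genes named with their list for being called or not called, and Elane, Prtn3, Lcn2, Mmp8, Itgb2l, Csf3r, Clec4d, Clec4e, Wfdc17, Cebpe, Gfi1, Klf6, Il6st, Satb1, Cpeb2, Eya1, Hoxa2, Hoxa7, Myc, Myb, Kit, Prom1, Slc2a1, Col1a1, Wnk1, Lpxn, Pan3, F13a1 and Ube4a, were named after their values were seen.

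Libraries of MLLT10 guide 1 and guide 2 with the same replicate number were related: their deviations from the group means correlated at r = 0.529, 0.221 and 0.333. Between the guides, pairs of different numbers ran from -0.481 to 0.205, the highest for guide 1 replicate 3 with guide 2 replicate 2. The main fit held no replicate block. Alternatives were DESeq2 1.42.0 and its size factors, no filter, a replicate block, a fit of the 9 libraries, each guide alone, and leaving out libraries. Promoters were matched by symbol for 8070 of 10578 tested genes. Results for some genes are not reported here.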

Additional observations from a re-analysis of the deposited data

How the results depend on the processing

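No gene called in the comparison of the knockouts was called in the opposite direction under any refit or with either guide alone, and with DESeq2 1103 of 1153 higher and 1273 of 1333 lower genes were called again. Of 160 named genes called, 133 kept their call in all 21 alternatives, but they were partly named for a small p or a call with both guides. Among all called genes fewer were called again without DOT1L replicate 3: 706 of 1153 higher (61.2%) and 962 of 1333 lower (72.2%). At 2-fold or more the counts were 541 higher and 611 lower. Leaving out 1 library each gave 727 to 1193 higher and 983 to 1333 lower, 618 to 999 and 769 to 1039 for guide 1, and 556 to 905 and 787 to 1064 for guide 2; the lowest higher counts were all without DOT1L replicate 3. DOT1L and MLLT10 libraries of the same replicate number were weakly related for replicates 1 and 3. Their r was 0.158, 0.0166 and 0.229 with guide 1 and 0.14, -0.0101 and 0.181 with guide 2. Pairs of different numbers ran from -0.241 to 0.0927. With the replicate block the counts were 1291 higher and 1493 lower, and 4 p53 targets and 5 lysosome genes were higher. Between the guides, no filter on low counts gave 7 higher and 9 lower, and leaving out 1 library gave 0 to 1 lower.

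The 25 higher and 25 lower genes of MLLT10 knockout against NT moved most: 122 and 70 with no filter, 50 and 54 with DESeq2, 38 and 41 with the replicate block, 44 lower without both libraries of other groups that stood apart (MLLT1 guide 1 replicate 1, MLLT6 guide 1 replicate 3), and 14 lower without replicate 1 of both MLLT10 guides. Leaving out 1 library gave 8 to 28 higher and 6 to 28 lower, with 8 and 7 without NT replicate 2 and 9 and 6 without NT replicate 3.

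Of the genes not called, 3 turned sign. Leaving out 1 library each, Mllt3 ran from -0.183 to 0.0668, Myc from -0.502 to 0.143 and Myb from -0.0864 to 0.0082. Without replicate 1 of both MLLT10 guides they were at 0.0425, 0.179 and 0.0419, and with guide 1 alone Mllt3 was at 0.208 and Myb at 0.0039. The cause was not tested.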

Other observations

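Noncoding transcripts were also counted. Of 132 tested lincRNA genes 19 (14.4%) were higher and 8 (6.06%) lower in MLLT10 than in DOT1L knockout, and of 113 tested antisense genes 18 (15.9%) were higher and 14 (12.4%) lower, beside 10.9% and 12.6% of all genes; without a stated strand setting, an antisense count can hold reads of its partner gene. Of 14 tested snoRNA genes 0 were higher and 4 (28.6%) lower. None of these shares was tested against that of all genes.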
